A study of Mus musculus with 14 samples.

Results

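Muc1, Muc4, Muc13, Muc20, Tff1, Tff2, Tff3, Agr2 and Spdef are the membrane mucins, trefoil peptides and secretory regulators described here, 9 of the 20377 gene symbols in the deposited table, each matched by its symbol and represented by its transcript with the highest mean over all libraries. RNA was profiled in 3 sorted populations from adult C57BL/6 mice, chimeric animals in which mature hepatocytes were tagged in red. All animals, those giving the hepatocytes included, had received 0.1% DDC, a porphyrin-inducing toxicant that injures bile ducts, over 5 to 8 weeks, so no group came from uninjured liver. Hepatocyte-derived ductal cells (5 libraries), which the labels call donor cells, carried the ductal surface antigen MIC1-1C3 and the red protein mTomato, had low side scatter and lacked CD11b, CD26, CD31 and CD45. Cholangiocyte-derived ductal cells (5 libraries), called host cells, met the same gate without mTomato, and the hepatocytes gave 4 libraries. The driver of the red tag and the host hepatocytes the chimeras kept are not stated in the sources used here. Levels are RPKM, reads scaled to transcript length and library size, as deposited by the authors. The labels do not say whether libraries with different numbers come from different animals, so each p-value covers the spread among these samples alone, and that spread may be technical.

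Mucins are large glycoproteins whose repeat domains carry dense O-linked sugars. Membrane mucins such as Muc1 stay anchored in the apical membrane, while gel-forming mucins are secreted together with trefoil peptides, small disulfide-rich proteins that protect and help restore mucosal surfaces. In mucus-secreting cells Agr2 folds mucins in the endoplasmic reticulum and the ETS factor Spdef promotes the maturation of goblet cells. Bile duct epithelium carries membrane mucins on its apical side and can secrete trefoil peptides.

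The labels were first set against marker genes. Summed over 8 biliary markers, levels were 16797 to 19600 RPKM in hepatocyte-derived ductal cells, 20354 to 21946 in cholangiocyte-derived ductal cells and 624 to 1413 in hepatocytes. Summed over 7 hepatocyte markers, they were 4217 to 8996, 2739 to 4210 and 42749 to 60093 RPKM in the same groups. The biliary sums were mostly osteopontin (Spp1), with means of 17560, 18618 and 938 RPKM in these groups. Between the ductal groups, 5 of the 8 biliary markers were called lower by limma in hepatocyte-derived cells and none higher. Of all tested genes, 21% were called lower there and 15.1% higher. Hepatocyte library 118 stood apart from the other hepatocytes, with 737.69 RPKM over 8 macrophage markers against 17.73 to 33.46, with 185.48 over 6 endothelial markers against 4.21 to 12.31, and with 10.36 RPKM of the ductal keratin gene Krt19 against 0.09 to 0.67. Depth was estimated at 23600000 to 33300000 reads per library. The median log2 difference over all 12638 tested genes was 0.67 for hepatocyte-derived ductal cells minus hepatocytes, 0.76 for cholangiocyte-derived ductal cells minus hepatocytes and -0.03 between the ductal groups, and the direction of small differences from hepatocytes has to be read against these shifts.

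Of the 9 genes, 5 reached 1 RPKM in at least 4 libraries and entered the test across all genes, namely Muc1, Muc20, Tff2, Tff3 and Spdef. Muc20 passed only through cholangiocyte-derived ductal cells and Spdef only through hepatocyte-derived ductal cells, so that these genes had to differ somewhere. Muc4 and Muc13 stayed below 0.3 RPKM, and Tff1 and Agr2 were listed at 0 in all 14 libraries. Against hepatocytes, hepatocyte-derived ductal cells had Muc1, Tff2 and Spdef called higher and Tff3 called lower, where 66.2% of all tested genes were called higher and 14.8% lower. Cholangiocyte-derived ductal cells had Muc1, Muc20 and Tff2 called higher and Tff3 and Spdef lower, where 67.1% and 17.4% of all tested genes were called in these directions. Both comparisons use the same hepatocyte libraries. Between hepatocyte-derived and cholangiocyte-derived ductal cells, Spdef was called higher and Muc1, Muc20 and Tff2 lower, where 15.1% and 21% of all tested genes were called. All of these calls were also made without hepatocyte library 118 and cholangiocyte-derived libraries 118 and 220, which held the most transcripts of other cells.

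**Figure D1:**
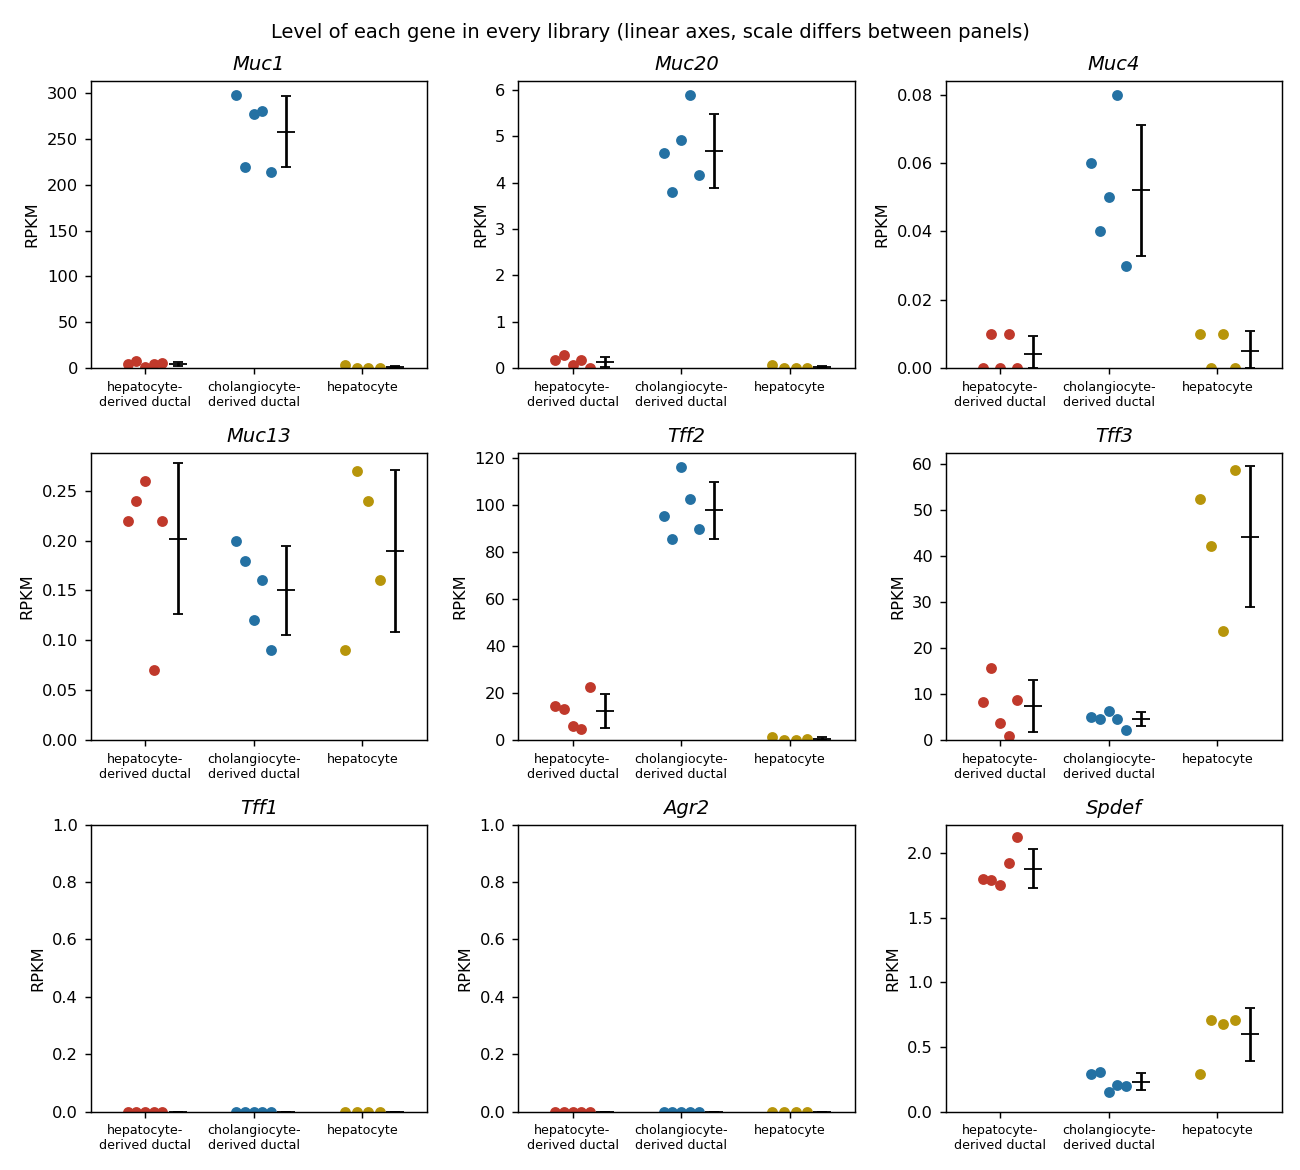
RPKM of the 9 genes in every library (points) of hepatocyte-derived ductal cells, cholangiocyte-derived ductal cells and hepatocytes, with the mean and SD beside them (lower bars stop at 0). Muc1, Muc20 and Tff2 are highest in cholangiocyte-derived ductal cells, Tff3 in hepatocytes and Spdef in hepatocyte-derived ductal cells, while Tff1 and Agr2 lie at 0.

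**Figure D2:**
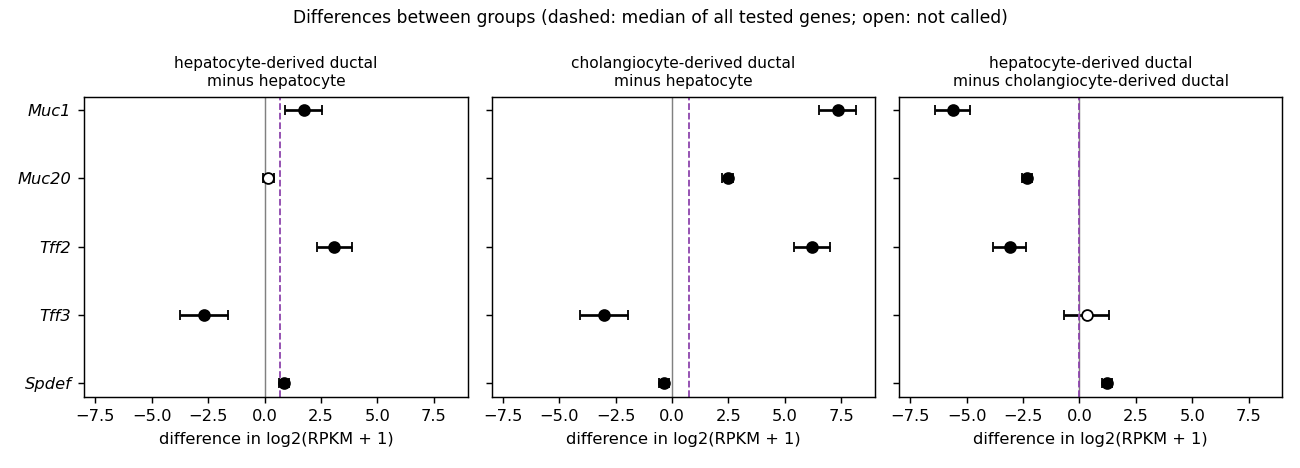
Differences in log2(RPKM + 1) between groups for the 5 genes tested, with 95% confidence intervals, filled where called by limma. The dashed line is the median over all tested genes, and the difference of Spdef between hepatocyte-derived ductal cells and hepatocytes, 0.86, lies close to it and turned to -0.17 under quantile normalization.

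The promoters of Muc1, Muc20 and Spdef are shown because the first pair had its highest levels in cholangiocyte-derived ductal cells and Spdef its highest in hepatocyte-derived ones. The 250 bases before the start of each gene are from RefSeq on build GRCm38.p6, 5′ to 3′ on the gene's strand, and capitals mark the motifs found.
Muc1: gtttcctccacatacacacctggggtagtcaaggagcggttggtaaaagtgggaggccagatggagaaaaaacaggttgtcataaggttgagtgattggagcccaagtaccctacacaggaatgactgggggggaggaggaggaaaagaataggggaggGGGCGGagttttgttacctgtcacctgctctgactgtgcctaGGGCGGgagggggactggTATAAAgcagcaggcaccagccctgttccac
Muc20: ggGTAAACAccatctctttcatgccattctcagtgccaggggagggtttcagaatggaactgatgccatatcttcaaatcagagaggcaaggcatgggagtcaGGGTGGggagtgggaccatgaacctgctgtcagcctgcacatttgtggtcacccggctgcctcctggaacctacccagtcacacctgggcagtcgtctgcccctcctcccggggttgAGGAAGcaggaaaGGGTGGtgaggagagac
Spdef: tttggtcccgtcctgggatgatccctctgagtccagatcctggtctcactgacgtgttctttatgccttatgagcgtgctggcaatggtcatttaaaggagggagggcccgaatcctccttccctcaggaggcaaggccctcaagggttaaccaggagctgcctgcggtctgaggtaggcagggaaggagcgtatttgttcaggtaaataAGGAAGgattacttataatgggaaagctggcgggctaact
They lie at chr3:89228806-89229055 (plus strand), chr16:32797436-32797685 (minus strand) and chr17:27728952-27729201 (minus strand), with a GC content of 54.8%, 57.2% and 52.8%. Searched on both strands were the TATA box TATAAA, the GC box GGGCGG, the forkhead core TGTTTAC, the ETS core AGGAAG, the AP-1 site TGANTCA and the CACCC box CCACCC, and no marked matches overlap. Muc1 has a TATA box 31 to 26 bases before the start and GC boxes at 91 to 86 and 49 to 44. Muc20 has an ETS core at 30 to 25, CACCC boxes on the opposite strand at 147 to 142 and 17 to 12, and a forkhead core on the opposite strand at 248 to 242. In Spdef the only match was an ETS core at 40 to 35. Among 32851 promoter windows of this length, TATAAA was in 12.4%, GGGCGG in 32.7%, TGTTTAC in 3.17%, AGGAAG in 29.5%, TGANTCA in 6.75% and CCACCC in 28.1%.

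Muc1 encodes a transmembrane mucin whose short cytoplasmic tail binds beta-catenin and signalling kinases (NM_013605, chromosome 3, 89032974 to 89037291 in mm9, plus strand). Hepatocyte-derived ductal libraries 219, 220, 225, 248 and 611 held 4.43, 7.39, 1.47, 4.18 and 5.66 RPKM. Cholangiocyte-derived ductal libraries 118, 219, 220, 225 and 611 held 298.21, 219.07, 277.09, 280.88 and 213.81 RPKM. Hepatocyte libraries 118, 225, 248 and 611 held 2.98, 0.05, 0.1 and 0.33 RPKM. Every cholangiocyte-derived library lay above every other library, and hepatocyte library 118 alone reached into the range of hepatocyte-derived ductal cells. The means were 4.63 ± 2.17 RPKM for hepatocyte-derived ductal cells, 258 ± 38.6 for cholangiocyte-derived ones and 0.865 ± 1.42 in hepatocytes (SD, n = 5, 5 and 4).

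Muc1 was 55.7-fold lower in hepatocyte-derived than in cholangiocyte-derived ductal cells by the ratio of means, with a log2 difference of -5.62 ± 0.36 (SE, limma adjusted p = 2.59e-08). Within sample numbers, the cholangiocyte-derived value was 49.5 times the hepatocyte-derived one for number 219, 37.5 times for 220, 191 times for 225 and 37.8 times for 611. Against hepatocytes, hepatocyte-derived ductal cells had a 5.35-fold higher mean and a log2 difference of 1.73 ± 0.38 (adjusted p = 7.31e-04). Without hepatocyte library 118 this ratio was 28.9 and the log2 difference 2.18, while quantile normalization ended the call (0.67, adjusted p = 0.114). Cholangiocyte-derived ductal cells exceeded hepatocytes by 7.35 ± 0.38 on the log2 scale (adjusted p = 2.26e-10), a 298-fold ratio of means that became 1611 without library 118. The ratios without library 118 rest on 3 hepatocyte values of an estimated 3.2, 6.5 and 19.0 reads, the last from library 611, and are imprecise. In bulk samples such as these, fewer cells of a type and less RNA per cell cannot be told apart.

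Muc20 encodes a small membrane mucin that binds the hepatocyte growth factor receptor Met (NM_146071, chromosome 16, 32785870 to 32797521, minus strand). Hepatocyte-derived ductal libraries, in the order above, held 0.17, 0.29, 0.07, 0.17 and 0 RPKM. Cholangiocyte-derived ductal libraries held 4.65, 3.81, 4.93, 5.9 and 4.16 RPKM, and hepatocytes 0.07, 0, 0 and 0. The gene thus stood apart in cholangiocyte-derived ductal cells, and the values of the other groups overlapped near 0. Only cholangiocyte-derived libraries reached 1 RPKM of Muc20, so it entered the test through the group where it is high and had to differ. Hepatocyte-derived minus cholangiocyte-derived ductal cells gave a log2 difference of -2.31 ± 0.11 (adjusted p = 8.62e-10), a 33.5-fold lower mean. Cholangiocyte-derived ductal cells exceeded hepatocytes by 2.47 ± 0.11 (adjusted p = 5.77e-11). Hepatocyte-derived ductal cells and hepatocytes gave 0.16 ± 0.11 (95% confidence interval -0.08 to 0.40, adjusted p = 0.204), which was called at a pseudocount of 0.1 (0.93, adjusted p = 0.0251) and became -0.071 under quantile normalization (adjusted p = 0.628).

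Muc4, a large membrane mucin that associates with the receptor Erbb2 in other epithelia, lies next to Muc20 on chromosome 16 (NM_080457, 32735972 to 32782476, plus strand). Hepatocyte-derived ductal libraries held 0, 0.01, 0, 0.01 and 0 RPKM, cholangiocyte-derived ones 0.06, 0.04, 0.05, 0.08 and 0.03, and hepatocytes 0.01, 0, 0.01 and 0. The cholangiocyte-derived values, an estimated 10 to 23.5 reads, all lay above the rest. The means differed between hepatocyte-derived and cholangiocyte-derived ductal cells (exact permutation test, two-sided, p = 0.00794) and between cholangiocyte-derived ductal cells and hepatocytes (p = 0.0159), the smallest values that groups of these sizes allow, with 0.0476 each after adjustment over 6 tests on Muc4 and Muc13. A longer Muc20 transcript (NM_001145874) runs into Muc4 on the opposite strand, sharing 381 of its 11277 exonic bases in a GRCm38 annotation, and the kit does not mark strand, so reads there cannot be told apart. That transcript's values correspond to 232 to 344 reads in cholangiocyte-derived libraries, 95.2 to 99.6% of those of the shorter one, and it has 1374 more bases, which hold the shared stretch. Both read numbers are estimates, and the origin of any reads in the shared stretch was not tested.

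Muc13, a membrane mucin of the gut and other glandular epithelia (NM_010739, chromosome 16, 33794123 to 33820013), did not separate the groups. It was at 0.22, 0.24, 0.26, 0.07 and 0.22 RPKM in hepatocyte-derived ductal cells. It was at 0.2, 0.18, 0.12, 0.16 and 0.09 RPKM in cholangiocyte-derived ductal cells and at 0.09, 0.27, 0.24 and 0.16 in hepatocytes, so all ranges overlap at an estimated 6.9 to 23 reads per library. The exact permutation p was 0.222 between the ductal groups, 0.825 for hepatocyte-derived ductal cells against hepatocytes and 0.413 for cholangiocyte-derived ductal cells against hepatocytes, so no difference was detectable at this depth.

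The trefoil genes lie side by side on chromosome 17 in mm9, Tff3 at 31262251 to 31266556, Tff2 at 31278007 to 31281227 and Tff1 at 31298341 to 31301998, all on the minus strand. Tff1, the peptide of gastric surface cells, was listed at 0 in every library, where 3 reads would be 0.128 to 0.181 RPKM. The same transcript is also listed on chromosome 5, within Tnrc18, again at 0. How reads matching both places were counted is not given in the sources used here, so the 0 may not mean absence. Tff2 and Tff3 divided the groups in opposite ways.

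Tff2, the spasmolytic peptide of gastric neck glands, was at 14.39, 13.25, 6.14, 4.46 and 22.77 RPKM in hepatocyte-derived ductal cells. Cholangiocyte-derived ductal cells held 95.3, 85.72, 116.57, 102.58 and 89.79 RPKM, and hepatocytes 1.42, 0, 0.08 and 0.26. No library of one group overlapped with another, and hepatocyte-derived ductal cells stood between. Library values did not overlap for 72.2% of all tested genes between hepatocyte-derived ductal cells and hepatocytes, for 75.2% between cholangiocyte-derived ductal cells and hepatocytes, and for 33.8% between the ductal groups. The means were 12.2 ± 7.32, 98.0 ± 12.2 and 0.44 ± 0.662 RPKM in these groups. Tff2 was 8.03-fold lower in hepatocyte-derived than in cholangiocyte-derived ductal cells (log2 difference -3.09 ± 0.35, adjusted p = 6.52e-06), and 5.96, 8.80, 16.7 and 3.94 times lower within numbers 219, 220, 225 and 611. Hepatocyte-derived ductal cells exceeded hepatocytes by 3.10 ± 0.37 (adjusted p = 2.17e-06) and cholangiocyte-derived ductal cells by 6.19 ± 0.37 (adjusted p = 9.53e-10). The ratios of means to hepatocytes were 27.7 and 223, and 108 and 865 without hepatocyte library 118, where the remaining hepatocyte values are near those of 3 reads. Of the 5 other genes on a list of gastric and intestinal markers, Gkn1 and Gkn2 were listed at 0 in all libraries and Cdx2 had no value above 0.02 RPKM. The microvillus gene Vil1 was at 10.02 ± 2.09 RPKM for hepatocyte-derived ductal cells, 34.0 ± 3.95 in cholangiocyte-derived ones and 0.648 ± 0.118 in hepatocytes, called higher than hepatocytes in both ductal groups. The fatty acid carrier gene Fabp2 was called lower in both, at 1.62 ± 0.736 and 1.62 ± 0.917 RPKM, against 50.8 ± 22.7 in hepatocytes.

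Tff3, the trefoil peptide of goblet cells, was at 8.15, 15.67, 3.75, 0.91 and 8.62 RPKM in hepatocyte-derived ductal cells. Cholangiocyte-derived ductal cells held 5.05, 4.53, 6.19, 4.62 and 2.18 RPKM, and hepatocytes 52.22, 42.18, 23.61 and 58.59. Both ductal groups lay below every hepatocyte library and overlapped with each other. The means were 7.42 ± 5.61 RPKM for hepatocyte-derived ductal cells, 4.51 ± 1.46 for cholangiocyte-derived ones and 44.2 ± 15.3 in hepatocytes. Tff3 was 5.95-fold lower in hepatocyte-derived ductal cells relative to hepatocytes (log2 difference -2.68 ± 0.49, adjusted p = 1.6e-04) and 9.78-fold lower in cholangiocyte-derived ductal cells (-3.01 ± 0.49, adjusted p = 4.93e-05). Between the ductal groups the log2 difference was 0.33 ± 0.47 (95% confidence interval -0.68 to 1.33, adjusted p = 0.638). With the sample number as a block in limma it was 0.67 (adjusted p = 0.0758). Within numbers 219, 220, 225 and 611, the hepatocyte-derived value was 1.80, 2.53, 0.812 and 3.95 times the cholangiocyte-derived one. The log2 difference was -0.0036 without hepatocyte-derived library 220. That library had the highest summed hepatocyte markers of its group, 8996 RPKM, while library 248, with the least Tff3, had 4854 and library 219, with 8.15 RPKM of Tff3, had the lowest sum, 4217. The part of hepatocyte transcripts in the Tff3 level of ductal cells was not tested.

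The balance of both trefoil genes was taken per library as log2((Tff2 + 1)/(Tff3 + 1)). It was 0.79 ± 0.68 for hepatocyte-derived ductal cells, 4.21 ± 0.36 for cholangiocyte-derived ones and -4.99 ± 0.59 in hepatocytes, and no library overlapped between groups. The difference was 5.78 for hepatocyte-derived ductal cells minus hepatocytes, 9.20 for cholangiocyte-derived ductal cells minus hepatocytes and -3.42 between the ductal groups. The exact permutation test (two-sided) gave p = 0.0159 after adjustment over these 3 comparisons, each raw p being the smallest the group sizes allow. The balance reuses the values above, in which both genes already set the ductal groups apart from hepatocytes in opposite directions. Its test is therefore no separate evidence. Between the ductal groups Tff3 was not called, so -3.42 mainly restates the Tff2 difference of -3.09. Tff2 was 0.846 times Tff3 in hepatocyte-derived library 220 and up to 4.90 times in library 248, against 18.8 to 41.2 times in cholangiocyte-derived ductal cells. In hepatocytes Tff3 exceeded Tff2 by 36.8 times in library 118, 295 times in 248 and 225 times in 611. The ratios of 248 and 611 rest on an estimated 1.4 and 3.9 reads of Tff2 and are imprecise. Library 225 has no ratio because Tff2 was listed at 0 there. The sum of both genes was 19.6 ± 11.5 RPKM for hepatocyte-derived ductal cells, 102.5 ± 13.2 for cholangiocyte-derived ones and 44.6 ± 15.6 in hepatocytes. In the plot of Tff2 against Tff3, hepatocyte-derived ductal libraries lie nearer to the line of equal levels than the libraries of the other groups.

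**Figure D3:**
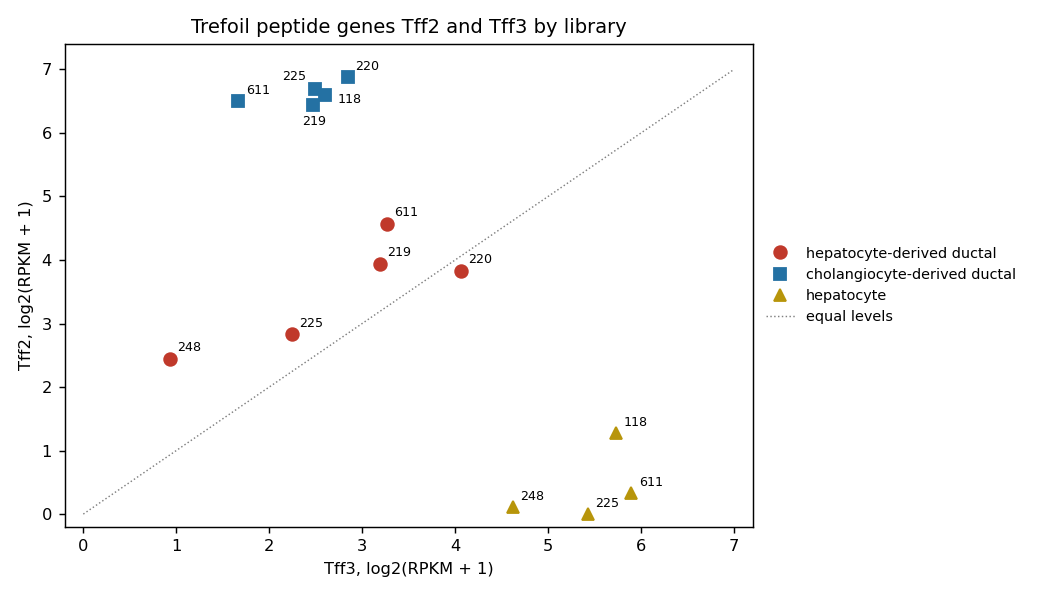
Tff2 against Tff3, both as log2(RPKM + 1), with 1 point per library labelled by its number and the line of equal levels. Cholangiocyte-derived ductal libraries lie far above the line, hepatocytes far below it, and hepatocyte-derived ductal libraries close to it, with library 220 just below.

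Agr2, the protein disulfide isomerase of mucus cells (NM_011783, chromosome 12, 36719512 to 36730668), was listed at 0 in all 14 libraries, where 3 reads would be 0.115 to 0.162 RPKM. Spdef (NM_013891, chromosome 17, 27851392 to 27865896, minus strand) had its highest level in hepatocyte-derived ductal cells. These held 1.8, 1.79, 1.75, 1.92 and 2.12 RPKM, cholangiocyte-derived ductal cells 0.29, 0.31, 0.15, 0.21 and 0.2, and hepatocytes 0.29, 0.71, 0.68 and 0.71. The hepatocyte-derived values were close to each other and above all others, and hepatocyte library 118 equalled cholangiocyte-derived library 118. The means were 1.88 ± 0.150, 0.232 ± 0.0665 and 0.598 ± 0.205 RPKM, and the estimated reads were 81.6 to 122.8, 8.1 to 16 and 14.8 to 38.6 per library.

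Spdef was 8.09-fold higher in hepatocyte-derived than in cholangiocyte-derived ductal cells, with a log2 difference of 1.22 ± 0.10 (adjusted p = 1.82e-07), and 5.81, 11.9, 8.33 and 10.6 times higher within numbers 219, 220, 225 and 611. This call was made under all 25 alternatives (adjusted p of 8.51e-10 to 2.38e-05), with 1.13 after rescaling by median ratios and 1.17 under quantile normalization. Only hepatocyte-derived libraries reached 1 RPKM of Spdef, so it entered the test through the group where it is high and had to differ. Most alternatives keep that filter, so the repeated call is no separate evidence. Against hepatocytes, hepatocyte-derived ductal cells had a 3.14-fold higher mean and a log2 difference of 0.86 ± 0.10 (adjusted p = 1.9e-06), which is 0.19 above the median of all genes. It was 0.47 after rescaling by median ratios (adjusted p = 0.00157) and turned to -0.17 under quantile normalization (adjusted p = 0.356), so its direction depends on the scaling. Cholangiocyte-derived ductal cells were lower than hepatocytes by -0.37 ± 0.10 (adjusted p = 0.00363), with overlap through library 118. Summed stellate and fibroblast markers were 7.64 to 22.34 RPKM in hepatocyte-derived ductal cells (median 11.5), against 27.89 to 372.36 in cholangiocyte-derived ones (63.98) and 1.57 to 128.26 in hepatocytes (3.55). Their part in the Spdef difference was not tested.

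Set as a share of the cholangiocyte-derived mean, hepatocyte-derived ductal cells reached 1.79% for Muc1 (0.570 to 2.87% over libraries), 2.99% for Muc20 (0 to 6.18%) and 12.5% for Tff2 (4.55 to 23.2%). Biliary markers covered a wide range on this scale. Krt19 reached 6.47% (3.56 to 12.4%), the ductal keratin gene Krt7 11.8% and the adhesion molecule gene Epcam 15.6%, while the biliary factor Sox9 reached 90.1% and osteopontin (Spp1) 94.3%. The highest hepatocyte-derived library for Muc1 thus lay below the lowest for Krt19, and differences between genes were not tested. Hepatocyte library 118 held 1.16% of the cholangiocyte-derived mean for Muc1, 1.45% for Tff2 and 1.49% for Muc20, next to 1.58% for Krt19, 1.37% for Krt7 and 1.65% for Epcam. Spdef stood at 809% (754 to 914%) and Tff3 at 164% (20.2 to 347%).

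**Figure D4:**
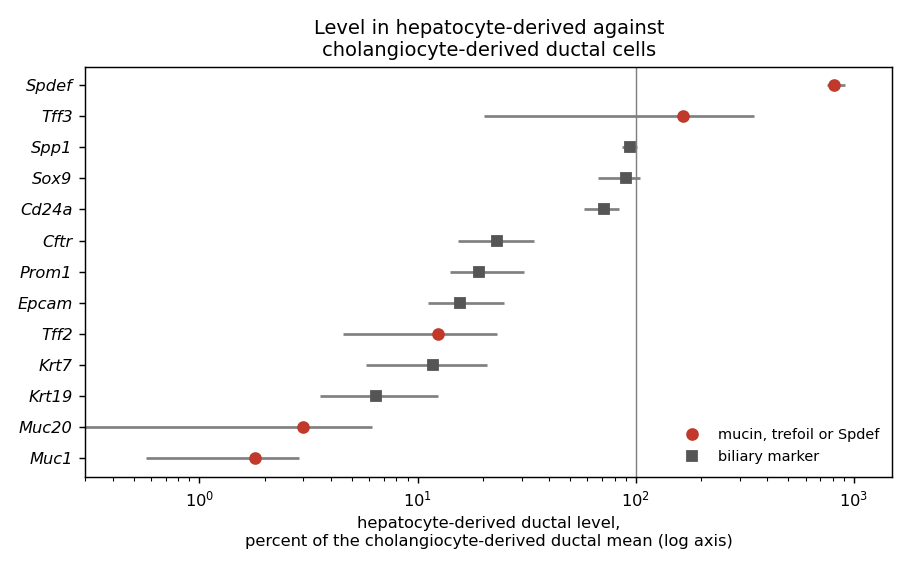
Mean level in hepatocyte-derived ductal cells as a percent of the cholangiocyte-derived mean (log axis), with lines from the lowest to the highest hepatocyte-derived library; the line of Muc20 starts at 0, off the axis. Muc1 and Muc20 lie left of all biliary markers shown and Spdef right of all.

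Over the 14 libraries, log2(RPKM + 1) of Muc1 correlated with that of Muc20 at r = 0.973 and with Tff2 at 0.945, Tff2 with Tff3 at -0.69 and Muc20 with Spdef at -0.72. These describe the same 3 groups and carry no test. Closest to Muc1 were Gabrp, a subunit of the GABA-A receptor (r = 0.996), with means of 5.17, 173 and 0.593 RPKM in hepatocyte-derived ductal cells, cholangiocyte-derived ductal cells and hepatocytes, and the sphingolipid enzyme gene Degs2 (0.995). Muc20 lay closest to the calcium-binding S100a14 (0.998; 0.422, 29.8 and 0.0875 RPKM) and the flippase gene Atp10b (0.997). Nearest to Tff2 were Syt7, a calcium sensor of vesicle release (0.997; 7.53, 49.6 and 0.208 RPKM), and Plxdc2 (0.992). Tff3 had looser partners, Shmt1, a one-carbon enzyme (0.935; 23.5, 20.5 and 69.3 RPKM), and Brp44 (0.934). Spdef was most like 9430020K01Rik (0.985; 8.89, 2.45 and 3.21 RPKM) and Zeb1, a zinc finger repressor of epithelial genes (0.977; 12.5, 3.44 and 4.77 RPKM).

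Gel-forming mucins were low in all groups. Muc2, Muc5ac, Muc5b, Muc6 and Muc19 had no value above 0.16 RPKM in any library, the highest being Muc6, and none of the 5 entered the test. Of 6 further membrane mucins and mucin-like genes found, 4 were tested, and 5 others listed were not found by symbol. The shares of all genes called, given above for each comparison, are the background for these counts and for those of the lists that follow. After rescaling by median ratios the shares were 37.5% higher and 36.3% lower for hepatocyte-derived ductal cells against hepatocytes, and 40.6% and 38% for cholangiocyte-derived ones, and under quantile normalization 36.4% and 32.7%, and 38.7% and 37.7%. In hepatocyte-derived ductal cells 2 were higher than in hepatocytes and none lower (median log2 difference 1.26, against 0.67 for all genes), with 2 higher in cholangiocyte-derived ductal cells (2.04, against 0.76) and 1 lower between the ductal groups (-0.38, against -0.03). After rescaling by median ratios 1 was also lower than hepatocytes in each ductal group. Between the ductal groups 1 was higher and 2 were lower under quantile normalization, with the sample number as a block and without the 3 libraries holding other cells' transcripts. The gene lower as deposited was the mucin-like Parm1, at 7.18 ± 1.60 RPKM in hepatocyte-derived and 17.3 ± 3.46 in cholangiocyte-derived ductal cells (-1.16, adjusted p = 1.74e-05). The 2 higher than hepatocytes in both ductal groups were Parm1 and the cell adhesion gene Mcam, the latter named after its value was seen.

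Enzymes that build O-linked sugars on mucins were more often lower than higher in hepatocyte-derived against cholangiocyte-derived ductal cells. Of 24 genes found, 17 were tested. Between hepatocyte-derived and cholangiocyte-derived ductal cells 1 was higher and 10 were lower (median -0.41, against -0.03), and 1 and 11 under quantile normalization, where 15.1% of all genes were higher and 21% lower as deposited, and 24.3% and 19% under quantile normalization. Against hepatocytes, hepatocyte-derived ductal cells had 12 higher and 2 lower (median 0.82, against 0.67 for all genes) and cholangiocyte-derived ductal cells 13 higher and none lower (1.50, against 0.76), where 66.2% and 67.1% of all genes were higher, so the counts of higher genes lie near the background. After rescaling by median ratios these were 8 and 4, and 12 and 4, and under quantile normalization 7 and 4, and 10 and 3.

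Fut2, the fucosyltransferase that makes the H antigen of secretions, showed the largest difference among these, at 0.562 ± 0.306 RPKM in hepatocyte-derived and 25.1 ± 4.10 in cholangiocyte-derived ductal cells (-4.07, adjusted p = 2.06e-10). No library outside cholangiocyte-derived ductal cells reached 1 RPKM of Fut2, which therefore entered the test only through the group where it is high and had to differ. Galnt3 and Galnt12, which add the first sugar, had means of 2.58 ± 1.32 and 4.83 ± 0.974 RPKM in hepatocyte-derived ductal cells, against 19.4 ± 1.96 and 12.2 ± 0.663 in cholangiocyte-derived ones (-2.58 and -1.19). B3gnt3, which extends the core sugar, was at 1.18 ± 0.216 against 11.8 ± 2.81 RPKM (-2.53, adjusted p = 3.39e-06). The single gene higher in hepatocyte-derived ductal cells, named after its value was seen, was Gcnt4, at 5.42 ± 0.283 against 3.70 ± 0.650 RPKM (0.46, adjusted p = 0.0168).

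**Figure D5:**
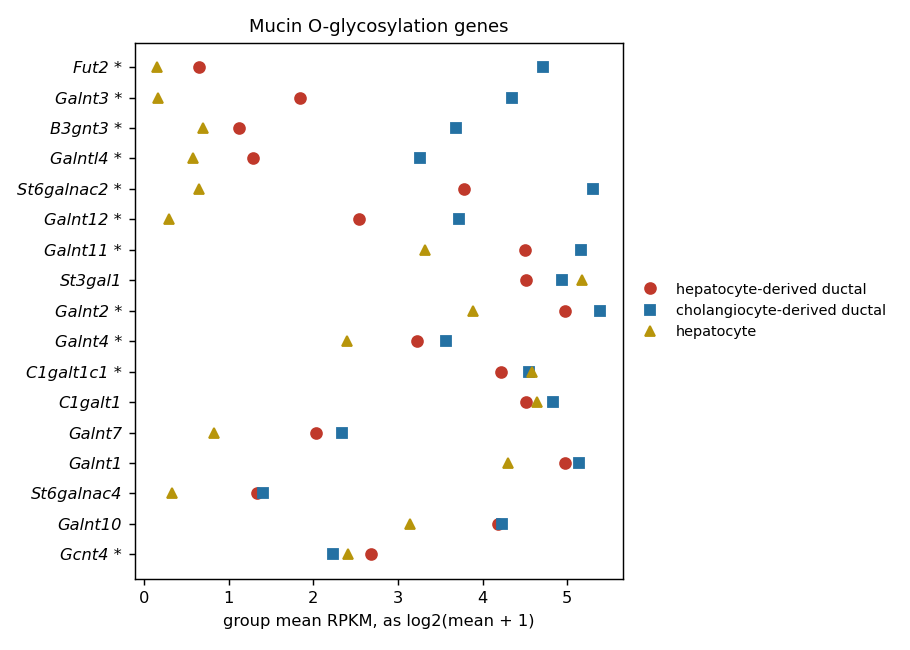
Group means of the 17 tested O-glycosylation genes as log2(mean RPKM + 1), ordered by the difference between the ductal groups, with an asterisk where that difference was called by limma. Cholangiocyte-derived ductal cells lie furthest right for Fut2, Galnt3 and B3gnt3, and Gcnt4 is the only gene with an asterisk whose hepatocyte-derived mean is the higher.

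Among transcription factors of secretory lineages, 13 of 17 were tested. In hepatocyte-derived ductal cells 10 were higher than in hepatocytes and 1 lower (median 1.31), and in cholangiocyte-derived ductal cells 10 were higher and 2 lower (2.54), where all genes had 0.67 and 0.76 and 66.2% and 67.1% of them were higher. For hepatocyte-derived ductal cells this became 9 and 3 after rescaling and 7 and 3 under quantile normalization, where 37.5% and 36.4% of all genes were higher. Between the ductal groups 1 was higher and 6 were lower in hepatocyte-derived cells (-0.52). The endoplasmic reticulum factor genes Creb3l1 and Creb3l4 had means of 1.64 ± 0.221 and 0.774 ± 0.198 RPKM in hepatocyte-derived ductal cells, against 19.7 ± 3.55 and 4.76 ± 0.522 in cholangiocyte-derived ones (-2.95 and -1.70), and Creb3l4 reached 1 RPKM in only 1 library outside the cholangiocyte-derived group, through which it entered the test. Klf5, an epithelial growth regulator, was at 6.92 ± 1.19 against 48.2 ± 7.42 RPKM (-2.64, adjusted p = 2.5e-09), and Ehf, an epithelial ETS factor like Spdef, at 45.4 ± 9.19 against 173 ± 12.3 RPKM (-1.93, adjusted p = 7.32e-06). Named after its value was seen, Foxa3, a forkhead factor of liver and gut, was the single one higher, at 28.9 ± 5.80 against 11.1 ± 1.99 RPKM (1.30, adjusted p = 1.63e-05), and hepatocytes held 35.7 ± 7.64 RPKM.

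Among secreted products and folding genes of mucous cells, 20 were found and 10 tested. Of these, 1 was above and 4 were below hepatocytes in hepatocyte-derived ductal cells (median -0.21, against 0.67 for all genes), 4 and 5 in cholangiocyte-derived ductal cells (-0.16, against 0.76), and 1 and 4 between the ductal groups (-0.12, against -0.03). Named after their values were seen, the 4 below hepatocytes in hepatocyte-derived ductal cells were Pigr and the folding genes Pdia4, P4hb and Hspa5. Hepatocytes held means of 918 RPKM of P4hb and 644 of Hspa5, so these folding genes are not particular to mucous cells. Against hepatocytes, 66.2% and 67.1% of all genes were higher and 14.8% and 17.4% lower. The entries listed as Fcgbp, Clca1 and Clca2 were 3 of the 4 genes higher in cholangiocyte-derived ductal cells than in hepatocytes. They were also 3 of the 4 lower between the ductal groups. All entered the test through the cholangiocyte-derived group, so these 2 counts cannot be read against the background. After rescaling by median ratios the counts were 1 and 7, 4 and 6, and 2 and 4, with medians of -1.01 and -0.99 against hepatocytes where all genes had 0.02 and 0.06, and under quantile normalization 2 and 4, 4 and 2, and 2 and 4, with medians of -0.17 and 0.31 against hepatocytes. Without the 3 libraries the first pair was 2 and 4. Fcgbp, a protein of the mucus layer, was at 0.104 ± 0.0602 RPKM in hepatocyte-derived and 3.16 ± 0.549 in cholangiocyte-derived ductal cells (-1.91, adjusted p = 2.62e-09). It reached 1 RPKM in no library of the other groups, so that it entered the test through the group where it is high and had to differ. The siderophore-binding Lcn2 was at 499 ± 164 against 1939 ± 639 RPKM (-1.95, adjusted p = 2.06e-05). The entries listed as Clca1 and Clca2 had means of 0.652 ± 0.261 and 1.01 ± 0.938 RPKM in hepatocyte-derived ductal cells, against 5.71 ± 2.58 and 11.3 ± 1.97 in cholangiocyte-derived ones (-1.96 and -2.70), and each reached 1 RPKM in 1 library outside that group, through which they entered the test. RefSeq now gives these transcripts the symbols Clca3a1 and Clca3a2, while the goblet cell gene, listed as Clca3, had no value above 0.03 RPKM, and reads could be split among such close paralogs. Named after its value was seen, the immunoglobulin transporter gene Pigr was the 1 higher in hepatocyte-derived than in cholangiocyte-derived ductal cells, at 58.5 ± 14.7 against 32.1 ± 11.2 RPKM (0.88, adjusted p = 0.0113), with 535 ± 129 RPKM in hepatocytes.

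Receptors and partners of mucins and trefoil peptides, which also serve many other ligands, were called in both directions. Of 11 found, 9 were tested, with 4 above and 2 below hepatocytes in hepatocyte-derived ductal cells (median 0.46, against 0.67 for all genes), 5 and 2 in cholangiocyte-derived ductal cells (0.67, against 0.76), and 2 and 3 between the ductal groups (-0.51, against -0.03). With 66.2% and 67.1% of all genes higher than in hepatocytes, neither ductal group exceeds the background here. After rescaling these were 3 and 3, 3 and 3, and 2 and 2, and under quantile normalization 4 and 4, 4 and 3, and 2 and 3. Erbb2, the receptor that MUC4 binds in human cells, was at 10.96 ± 0.597 RPKM in hepatocyte-derived and 29.9 ± 2.93 in cholangiocyte-derived ductal cells (-1.36, adjusted p = 7.85e-07), against 0.21 in hepatocytes. Ctnnb1, which encodes the beta-catenin bound by the Muc1 tail, was at 487 ± 16.1 against 712 ± 42.5 RPKM (-0.55, adjusted p = 9.21e-05). The epidermal growth factor receptor gene Egfr was at 26.1 ± 4.22 against 17.3 ± 1.42 RPKM (0.56, adjusted p = 0.00322), with its highest mean, 58.5 RPKM, in hepatocytes. Cxcr7, which with Cxcr4 has been proposed as a trefoil peptide receptor, was at 0.224 ± 0.0586 against 0.918 ± 0.389 RPKM (-0.62, adjusted p = 0.0218), a call lost under median ratios (-0.55, adjusted p = 0.0751), under quantile normalization (-0.24, adjusted p = 0.271) and without cholangiocyte-derived library 118 (-0.57, adjusted p = 0.0565) or 220 (-0.55, adjusted p = 0.0604). Only 3 cholangiocyte-derived libraries and 1 hepatocyte library reached 1 RPKM of this gene.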

How the data were processed

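Messenger RNA was profiled in 14 libraries of 3 sorted populations. The authors deposited 1 table of RPKM values, rounded to 2 decimals, with 26005 transcripts. Alignment was to mm9; Bowtie 0.12.7 and CASAVA are named per the submitters' processing notes. How reads were counted is not given in the sources used here. RNA (75 to 200 ng) was prepared with a kit that does not mark strand, per the labels' protocols. Of the columns, 12 matched a sample title. In the other 2 the number is 220 and in the titles 120; they were assigned by group alone and are named library 220. The series text gives 3 hepatocyte samples, and 4 were used.

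RPKM values, as log2 of the value plus 1, were compared with limma 3.58.1 (R 4.3.3) in 1 fit of the 3 groups with a mean-variance trend, over the 12638 symbols that reached 1 RPKM in 4 or more libraries. Tests were two-sided with Benjamini-Hochberg adjustment over all tested symbols, and an adjusted p under 0.05 was called. Fold changes on this scale understate the change of low genes; folds given as ratios compare mean RPKM. Muc4, Muc13 and the trefoil balance were tested by exact permutation (scipy 1.17.1). Positions count from 1. The limma step and the depth estimate were tried on simulated data, and the permutation tests were not. The data simulated for limma had independent libraries and few changed genes, unlike the data here.

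RPKM keeps no totals, so depth and reads were inferred from the spacing of low values of single-exon transcripts of 200 to 1100 nt, with GENCODE vM21 lengths, available for 97.6% of transcripts; intervals of single values are not given. At most 2.98% of values were identical between any pair of libraries, and all were kept as separate. Libraries with the same number deviated together from their group means between the ductal groups (4 pairs, correlation 0.212 to 0.797) and between cholangiocyte-derived ductal cells and hepatocytes (3 pairs, 0.133 to 0.512), less so between hepatocyte-derived ductal cells and hepatocytes (3 pairs, 0.021 to 0.193). Over all 55 pairs with different numbers the correlations were -0.564 to 0.464 (median -0.059), so that the ranges overlap.

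Named are the 9 genes, up to 4 genes per list with the smallest adjusted p between the ductal groups, and the 2 genes with the highest Pearson r to each tested member. The members and lists were chosen with earlier results of these data known. Alternatives were other pseudocounts (0.1 and 5), no filter, median ratios, quantile normalization, a replicate block, library weights, fits on 2 groups, means over transcripts, and leaving out libraries. Promoters are RefSeq windows, present for 6 of the 9 genes.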

Additional observations from a re-analysis of the deposited data

Results flagged for a closer look

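Groups of 4 or 5 libraries were checked for a single library far from the others for each gene named in the lists above, and 17 of 78 groups held one. The cutoff flags about 1 in 20 for independent, normally distributed values. Some of these values are rounded near 0 and the same libraries recur across genes, so that rate does not apply directly here. Hepatocyte library 118 accounted for most. It was higher than the other hepatocyte libraries for Muc1 (2.98 RPKM against 0.05 to 0.33), Muc20 (0.07 against 0), Fut2 (0.37 against 0.01 to 0.05), B3gnt3 (2.24 against 0.06 to 0.1), Klf5 (0.43 against 0 to 0.07), Clca1 (3.17 against 0.08 to 0.21), Clca2 (0.23 against 0 to 0.01), Erbb2 (0.68 against 0.02 to 0.08) and Cxcr7 (1.18 against 0.05 to 0.09). For Spdef the same library was lower, at 0.29 RPKM against 0.68 to 0.71.

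Hepatocyte-derived ductal library 611 was higher than the rest of its group for Parm1 (10.02 RPKM against 6.27 to 6.61), Galnt12 (6.54 against 4.28 to 4.72) and Clca2 (2.66 against 0.42 to 0.83). Muc13 was at 0.07 RPKM in hepatocyte-derived library 248, against 0.22 to 0.26 in the others. Ehf was at 152.07 RPKM in cholangiocyte-derived library 219, against 174.38 to 183.02. Muc2, low in all groups, was at 0.05 RPKM in cholangiocyte-derived library 225, against 0.01 to 0.02, and at 0.01 in hepatocyte library 248, against 0.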

How the results depend on the processing

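Each difference of a tested member was recomputed under 25 alternatives, and calls changed only where named here. Quantile normalization left 1 member called higher in hepatocyte-derived ductal cells relative to hepatocytes (Tff2) in place of 3, with Spdef at -0.17 and Muc20 at -0.071. A pseudocount of 0.1 called 4 higher, adding Muc20 (0.93). Tff3 between the ductal groups became -0.45 with library weights (adjusted p = 0.423) and -0.0036 without hepatocyte-derived library 220, the lowest of the values without 1 library, which reached 0.78 without library 248. The cause was not tested. The totals moved with scaling. Hepatocyte-derived ductal cells against hepatocytes had 8363 genes higher and 1873 lower as deposited, 4735 and 4590 after rescaling by median ratios, and 4596 and 4136 under quantile normalization. For cholangiocyte-derived ductal cells these were 8475 and 2195, 5132 and 4798, and 4891 and 4769. Between the ductal groups, 1913 genes were higher as deposited, 3069 under quantile normalization and 2987 with library weights. With the replicate block the member counts were unchanged (3 higher and 1 lower, 3 and 2, and 1 and 3), and the totals of hepatocyte-derived ductal cells against hepatocytes were 8410 and 1945. Leaving out single libraries changed no member call. Leaving out hepatocyte-derived library 219 together with the 3 libraries holding other cells' transcripts, an alternative chosen after seeing the data, changed none either. Depth limits Muc4 and Muc13, at an estimated 23.5 reads or fewer, and rounding to 2 decimals limits values near 0.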
